A study of Mus musculus with 6 samples.

Results

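The genes of the proteasome and of the proteins that assemble, activate or inhibit it were described in mDCT15 cells, a mouse line of the distal convoluted tubule, the nephron segment that reabsorbs sodium chloride through the thiazide-sensitive cotransporter. Genes were taken by symbol (the *Psma*, *Psmb*, *Psmc*, *Psmd*, *Psme* and *Psmg* names, *Psmf1*, *Pomp* and *Adrm1*), which gave 51 of the 20624 genes in the table, and no symbol occurred in more than 1 row. The libraries were made from 3 samples of *Pkd1-/-* mDCT15 cells, in which *Pkd1*, the gene of polycystin-1 mutated in polycystic kidney disease, had been edited with CRISPR/Cas9, and from 3 samples of wild type mDCT15 cells. One label calls the edited cells a knockdown, and the titles call them *Pkd1-/-*. All cells were cultured in the same serum-containing medium, with no treatment or time course, and how many edited clones were used is not given in the sources used here. The level of a gene is the authors' mean of normalized counts over all 6 samples, so it joins both genotypes, has no replicate error and allows no test. For the same reason the loss of *Pkd1* could not be checked sample by sample. Every ratio and order below is therefore a description of this mean.

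The proteasome degrades proteins tagged with ubiquitin. Its core particle (20S) is a barrel of stacked rings of alpha and beta subunits, in which the beta subunits encoded by *Psmb6*, *Psmb7* and *Psmb5* carry the caspase-like, trypsin-like and chymotrypsin-like activities. The regulatory particle (19S) caps the barrel, and its base unfolds substrates with a ring of ATPases while its lid removes the ubiquitin chains. Interferon-gamma induces the immunoproteasome subunits *Psmb9*, *Psmb10* and *Psmb8*, which replace those catalytic subunits in newly made particles and favour peptides that fit class I histocompatibility molecules.

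The identity of the cells was read from lists of kidney and other markers. Of 12 genes listed for the distal convoluted tubule, 7 had a row. *Slc12a3*, which encodes the thiazide-sensitive cotransporter itself, *Calb1* and *Pvalb* had no row in the table used here. The kinase genes *Wnk1*, *Stk39* and *Wnk4* had mean normalized counts of 8468, 621 and 413, and the other 4 (*Egf*, *Kcnj10*, *Trpm6* and *Klhl3*) lay between 5.70 and 48.3. Among 9 epithelial genes, 5 had a row, led by the renal transcription factor *Pax8* at 4905 and the kidney cadherin *Cdh16* at 4680. *Pax2* was at 2428, *Epcam* at 115 and *Krt8* at only 0.980, whereas *Cdh1*, *Krt18*, *Krt19* and *Cldn7* had no row. The epithelial list was thus mixed. Of the 5 proximal tubule genes, *Aqp1* (11355) and *Lrp2* (8826) were high, *Cubn* was at 169, and *Slc5a2* and *Slc34a1* were at 2.77 and 2.04. The mesenchymal gene *Vim* was at 17450. The defining distal marker thus had no row, and the proximal list was mixed. The lists of collecting duct, immune, and podocyte and endothelial genes summed to 2.56, 47.3 and 4.68 counts, and the fibroblast list without *Vim* was led by *Col1a1* at 201.

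A sequence stands at the start of the results because it sets how the catalytic subunits can be read. *Psmb5* lies on the minus strand of chromosome 14 (GRCm39, chr14:54850776-54855481). On chromosome 7 the annotation holds *Gm3375*, a processed pseudogene on the plus strand (chr7:3230842-3231636), whose sequence matched 784 of the 792 coding bases of *Psmb5* (99.0%), with a longest identical run of 194 bases. The 120-base stretch with the most differences, coding bases 268 to 387 of *Psmb5* counted from the first base of its start codon, is shown for both, with capitals at the 3 bases that differ. The copy's stretch is chr7:3231109-3231228.

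Psmb5: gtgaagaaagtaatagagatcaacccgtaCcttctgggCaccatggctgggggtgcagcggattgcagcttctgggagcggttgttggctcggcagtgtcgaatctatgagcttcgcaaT

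Gm3375: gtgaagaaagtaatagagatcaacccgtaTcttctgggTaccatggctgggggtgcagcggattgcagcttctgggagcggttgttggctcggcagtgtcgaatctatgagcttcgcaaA

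Reads had 42 bases per mate. Of the 669 windows of this length that lie within single coding exons of *Psmb5*, 430 (64.3%) occurred elsewhere in GRCm39, and 415 of them matched the place of *Gm3375*. A window shared by both is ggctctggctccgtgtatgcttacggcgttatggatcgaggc, which lies at chr14:54851841-54851882 on the minus strand and occurs 2 times in the genome. A read of that sequence alone cannot be given to either gene, and the counting left out reads with several places. *Psmb5* had a mean normalized count of 442 and *Gm3375* one of 497, a ratio of copy to gene of 1.12. How many reads of *Psmb5* were lost or counted for the copy was not tested.

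The 14 constitutive core genes, the alpha subunits *Psma1* to *Psma7* and the beta subunits *Psmb1* to *Psmb7*, had mean normalized counts between 442 (*Psmb5*) and 3142 (*Psmb4*), with a median of 1799. Per kilobase of merged exons, the union of all annotated exons of a gene, the median level of the core was 379, against 28.6 over the 20122 genes of the table with such a length. Of the 14, 10 were in the top 10% of all genes on this scale. The particle holds each of these proteins in equal number, but the mRNA levels per kilobase of merged exons spread 18.2-fold from the lowest to the highest gene. *Psma3* (alpha7) stood lowest, at 73.9 per kilobase of its 10672 bases of merged exons. Per kilobase of the longest annotated coding sequence the core spread 7.12-fold, with a median of 2346, and 12 of the 14 genes were within a factor of 2 of it.

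The core gene highest per kilobase of merged exons was *Psmb6*, the caspase-like subunit, at 1346 (3968 per kilobase of coding length). It was followed by *Psmb4* (beta7) at 832 and *Psma6* (alpha1) at 781. On the coding scale *Psmb4* (3741) was the second, *Psmb1* (beta6) the third at 3713, and *Psma6* the ninth at 2159. At the low end, *Psma3*, *Psmb2* (beta4, 230) and *Psmb5* (246) were lowest per kilobase of merged exons. *Psmb2*, whose merged exons run over 9386 bases, stood at 3356 per kilobase of coding length, the fourth highest of the core. *Psma3* and *Psmb5* stayed low, at 1031 and 558, and were the core genes below 1/2 of the core's median on the coding scale.

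**Figure D1:**
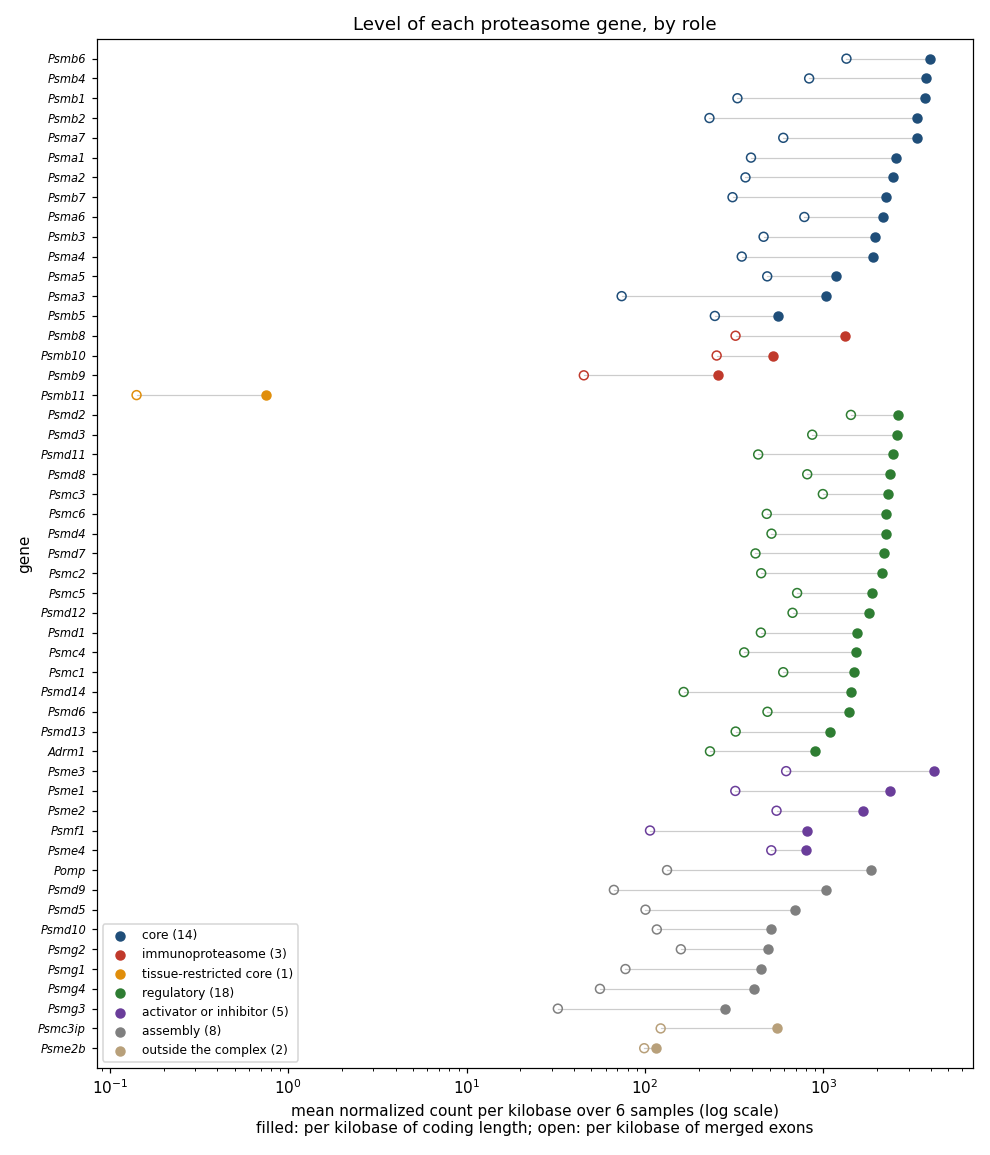
Mean normalized count per kilobase over the 6 samples for each of the 51 genes, on a log axis, grouped by role (colour) and ordered within a role by the filled points; filled points are per kilobase of coding length and open points per kilobase of merged exons. Core and regulatory genes lie between 558 and 3968 on the coding scale, and *Psmb11* stands apart from all other genes drawn at 0.745.

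Of the catalytic genes, *Psmb6* had a mean normalized count of 2953, *Psmb7* of 1863 and *Psmb5* of 442. Their order as counted was the same per kilobase of merged exons (1346, 309 and 246) and per kilobase of coding length (3968, 2242 and 558). It was not stable to the copy of *Psmb5* on merged exons. With the count of *Gm3375* added, *Psmb8*, at 321 per kilobase of merged exons, was at 0.615 of *Psmb5*. That puts *Psmb5* above *Psmb7* on this scale. The alpha ring and the non-catalytic part of the beta ring had medians of 2159 and 3534 per kilobase of coding length. The structural beta genes *Psmb1*, *Psmb2* and *Psmb4* lay between 3356 and 3741, and *Psmb3* (beta3) at 1949.

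All 3 immunoproteasome genes had a row. *Psmb8* (beta5i) had the highest mean normalized count of the trio, 1097, followed by *Psmb10* (beta2i) with 436 and *Psmb9* (beta1i) with 172. Per kilobase of merged exons these were 321, 252 and 45.4, and per kilobase of coding length 1325, 519 and 256. The median of the trio was 252 per kilobase of merged exons, against 379 in the constitutive core and 483 in the regulatory particle. On the coding scale *Psmb9* was at percentile 44.8 of all genes with a coding length, *Psmb10* at percentile 62.6 and *Psmb8* at percentile 85.2.

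Set against the constitutive subunit it replaces, *Psmb9* was at 0.0337 of the level of *Psmb6* per kilobase of merged exons and at 0.0646 per kilobase of coding length, that is, 29.7-fold and 15.5-fold lower. For *Psmb10* the ratio to *Psmb7* was 0.815 on merged exons but 0.232 on coding length, because the merged exons of *Psmb7* run over 6025 bases and those of *Psmb10* over 1732. The mean counts alone gave 0.234. *Psmb8* was the exception in direction, with 1.31 times the level of *Psmb5* per kilobase of merged exons and 2.38 times per kilobase of coding length. Of the 3 constitutive partners, *Psmb5* had the largest share of coding windows elsewhere, 64.3%, against 16.5% in *Psmb7* and 6.83% in *Psmb6*, while 0 of the 582 windows of *Psmb8* occurred elsewhere. When only the windows that occur once were used as length, the ratio of *Psmb8* to *Psmb5* was 1.02. With the count of *Gm3375* added to that of *Psmb5* it was 0.615 per kilobase of merged exons and 1.12 per kilobase of coding length. The order of these 2 genes thus turned with the treatment of the copy and the length, and no order is stated for them.

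**Figure D2:**
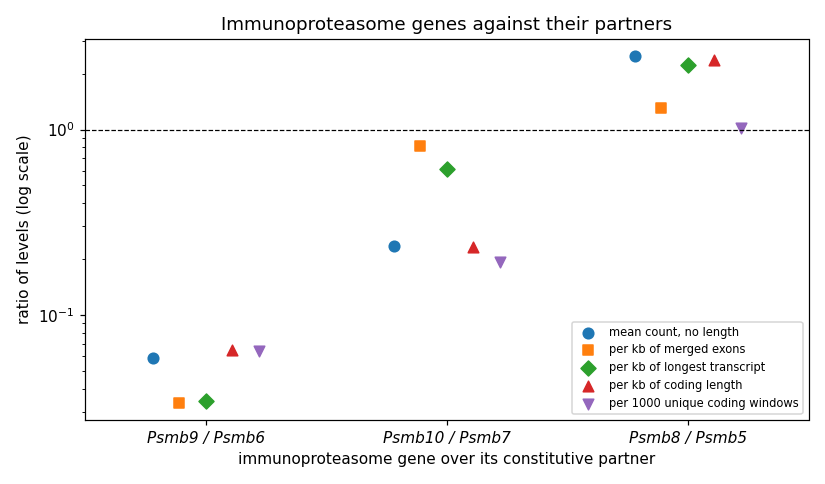
Ratio of the level of each immunoproteasome gene to that of its constitutive partner (log axis; dashed line, equal levels), with 1 marker for each length used. *Psmb9* lay far below *Psmb6* on each of the 5 scales, *Psmb10* below *Psmb7* by factors that depend on the scale (0.192 to 0.815), and *Psmb8* between 1.02 and 2.49 times *Psmb5*. With the count of *Gm3375* added to *Psmb5*, which is not drawn, the last ratio was 0.615 on merged exons and 1.12 on coding length.

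The tissue-restricted core gene *Psmb11* encodes beta5t of thymic cortical epithelium. Its mean normalized count was 0.675, which lies at percentile 0.907 of the table. It lies 3408 bases from *Psmb5* on chromosome 14, on the opposite strand. *Psma8*, the testis alpha subunit, had no row in the table used here.

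In the regulatory particle, 18 genes had mean normalized counts between 1155 (*Adrm1*) and 7208 (*Psmd2*), with a median of 2481. Their median level was 483 per kilobase of merged exons and 2010 per kilobase of coding length. On merged exons 16 of the 18 were in the top 10% of all genes, and on coding length 10 of the 18. The core and the regulatory particle had opposite orders on the 2 scales: the regulatory median was the higher on merged exons (483 against 379) and the lower on coding length (2010 against 2346). The spread on coding length was narrower than in the core, 2.89-fold, and 17 of the 18 genes were within a factor of 2 of their median.

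The base ATPases *Psmc1* to *Psmc6*, which form the ring that threads substrates into the core, were the most even group on coding length. There they spread 1.57-fold, from 1477 (*Psmc1*) to 2314 (*Psmc3*). On merged exons they spread 2.76-fold, more than the base assembly chaperones (1.74-fold) and the PA28 activators (1.93-fold) described below. Highest per kilobase of merged exons in the particle were *Psmd2* (Rpn1, a scaffold that binds ubiquitin receptors) at 1426, *Psmc3* (Rpt5) at 992 and *Psmd3* (Rpn3) at 865. *Psmd2* also had the highest level of the particle on coding length, 2603, and *Psmd3* was next at 2599. The lowest on merged exons were *Psmd14* (Rpn11, the deubiquitinase of the lid) at 165, *Adrm1* (Rpn13, a ubiquitin receptor) at 231 and *Psmd13* (Rpn9) at 322. Per kilobase of coding length *Psmd14* stood at 1435, *Psmd13* at 1090 and *Adrm1* at 900, and *Adrm1* alone was below 1/2 of the particle's median. *Psmd1* (Rpn2) and *Psmd4* (Rpn10, a ubiquitin receptor) had 1546 and 2235 on that scale, and the 8 lid genes had a median of 1995.

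**Figure D3:**
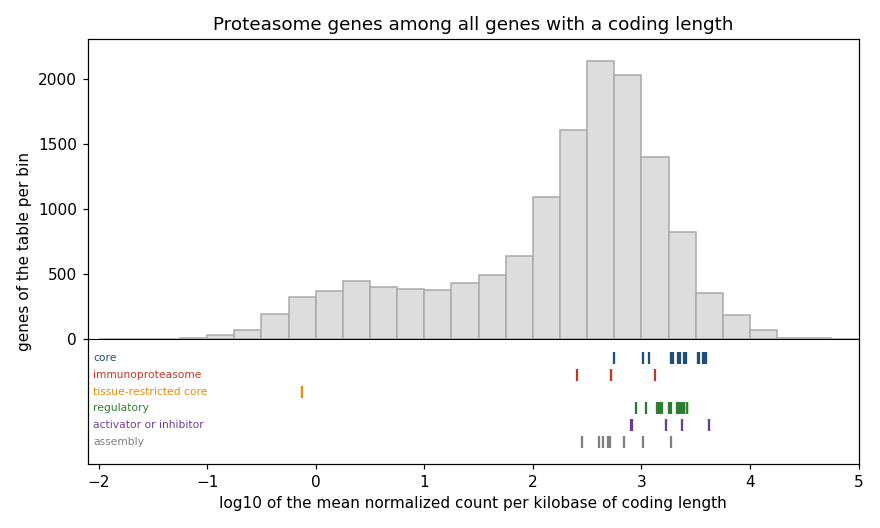
Number of genes of the table (bars) by the log10 of their mean normalized count per kilobase of coding length, for the 13865 genes with a coding length; ticks below 0 mark the proteasome genes, 1 line for each role. Core and regulatory genes sit in the right part of the distribution, immunoproteasome and assembly genes mostly near its peak, and *Psmb11* in the left tail.

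The activators open the gate of the core particle without ATP. *Psme1* and *Psme2*, the alpha and beta subunits of PA28, which interferon-gamma also induces, had mean normalized counts of 1775 and 1296. Their levels per kilobase of coding length were 2376 and 1674, and on merged exons the order was the opposite, 320 and 546. They are neighbours on chromosome 14, 2860 bases apart on opposite strands. *Psme3*, the nuclear PA28gamma, had a mean normalized count of 3160 and, at 4148, the highest level per kilobase of coding length of all 51 genes. Per kilobase of merged exons *Psme3* was at 618, rank 10 of the 51. *Psme4*, the single-chain activator PA200, had a mean count of 4471, but its coding sequence has 5616 bases, and per kilobase of it the level was 796 (510 on merged exons). *Psmf1* (PI31), described as an inhibitor of the core, had a mean count of 830, which is 812 per kilobase of coding length and 107 per kilobase of merged exons.

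The assembly chaperones had lower medians than the subunits they help to join. The 8 genes had a median of 89.1 per kilobase of merged exons and 499 per kilobase of coding length, and 0 of the 8 was in the top 10% of all genes on merged exons. *Pomp*, which is degraded by the core it has matured, was the highest on coding length at 1853, the only one of the 8 in the top 10% there, with a mean count of 1301. The core chaperones *Psmg1* to *Psmg4* (PAC1 to PAC4) had mean counts of 416, 406, 103 and 154, and levels of 444, 491, 281 and 410 per kilobase of coding length. PAC1 pairs with PAC2 and PAC3 with PAC4, and the mean counts fell into the same pairs, while the coding scale brought *Psmg4* close to *Psmg1*. Among the base chaperones, *Psmd9* (p27) had 1038, *Psmd5* (S5b) 696 and *Psmd10* (gankyrin) 508 per kilobase of coding length, from mean counts of 854, 1053 and 352.

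The name rule also took 2 genes that are not subunits or chaperones of the complex. *Psmc3ip* encodes HOP2, a protein of meiotic recombination, and had a mean count of 356. *Psme2b*, a retrocopy of *Psme2* on chromosome 11, had one of 82.8. Both are in the 51 and were left out of the medians by role.

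Copies like that of *Psmb5* were looked for in all 51 genes. In 22 of them at least 1 coding window of 42 bases occurred elsewhere, and in 13 more than 20% of the windows did. These 13 comprised 6 of 14 core genes, 4 of 18 regulatory genes, 2 of 5 activators and inhibitors and *Psme2b*, with 0 of 8 chaperones and 0 of 3 immunoproteasome genes. The largest shares were 87.4% in *Psma3*, 87.2% in *Adrm1*, 71.8% in *Psma5*, 64.3% in *Psmb5*, 63.9% in *Psmb3* and 61.6% in *Psme2*. At 26 places outside the gene itself at least 30 windows matched, and 20 of the places held an annotated processed pseudogene. The copy of *Adrm1* is the intronless *Adrm1b* on chromosome 3, which matched 1218 of 1221 coding bases (99.8%) and had a mean count of 20.7. For *Psma3*, *Gm13835* on chromosome 6 matched 665 of the 682 bases compared without gaps (97.5%), 662 of them in a single run. *Psme2b* matched 712 of 717 coding bases of *Psme2* (99.3%).

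Some of the genes with a large repeated share were low in their particles on coding length, where the 3 lowest core genes were *Psmb5*, *Psma3* and *Psma5*, and the lowest regulatory gene was *Adrm1*. On merged exons *Psma5* (484) and *Psmb3* (462) were above the core median of 379, and *Psmb2*, with a share of 0%, was among the lowest. In the regulatory particle the next shares after *Adrm1*, 295 of 738 windows in *Psmd11* and 649 of 1908 in *Psmd2*, belonged to genes with high levels on coding length, 2464 and 2603. The core genes with more than 50% of windows elsewhere (*Psma3*, *Psma5*, *Psmb5* and *Psmb3*) had a median of 1104 per kilobase of coding length, against 2954 in the other 10. Across the 14 core genes, Spearman's rho between the repeated share and the level was -0.77 on coding length and -0.43 on merged exons. It was -0.28 and -0.29 across the 18 regulatory genes. These are descriptions across genes that share the same 6 libraries. Dividing by the windows that occur once put *Psma3* at 18779 and *Psmb5* at 1848 per 1000 windows, the highest and the lowest of the core, and the spread of the core was then 10.2-fold. A read pair can be placed by either mate, so such a share need not be the share of reads lost. The part of repeated sequence in the low levels was not tested.

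**Figure D4:**
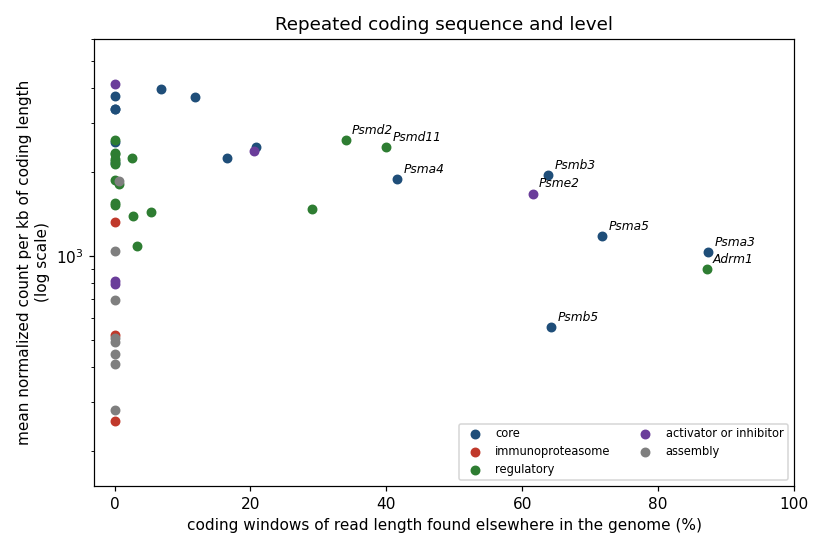
Mean normalized count per kilobase of coding length (log axis) against the percentage of coding windows of read length that occur elsewhere in GRCm39, 1 point per gene and coloured by role; *Psmb11* and the 2 genes outside the complex are not drawn. The core genes *Psma3*, *Psma5* and *Psmb5* and the regulatory gene *Adrm1* lie at shares of 64.3% or more and levels of 1178 or less. *Psmb3* (63.9%) and *Psme2* (61.6%), with shares close to that of *Psmb5*, lie higher, at 1949 and 1674. Immunoproteasome and assembly genes reach low levels at shares near 0.

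Exons shared with other genes are a further limit. Of the 51 genes, 28 overlapped an exon of another gene, 4 of them on the same strand and 25 on the opposite strand, with *Psmd1* on both. On the same strand, *Psmb5* shared 109 bases with *Mir686*. Whether overlaps on either strand cost reads was not tested. *Psmb9* and *Tap1*, a subunit of the transporter that carries peptides to class I molecules, share 743 bases from opposite strands on chromosome 17 (*Psmb9*, chr17:34400960-34406738). *Psmb8* (chr17:34416690-34420428) begins 490 bases after *Tap1* and ends 2072 bases before *Tap2*. The mean counts of the 4 neighbours were 172 for *Psmb9*, 461 for *Tap1*, 1097 for *Psmb8* and 691 for *Tap2*. Per kilobase of merged exons they were, in the same order, 45.4, 76.8, 321 and 145. Per kilobase of coding length they were 256, 212, 1325 and 328, so *Psmb8* alone stood well apart on that scale.

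Upstream sequence was compared through promoter windows of RefSeq (GRCm38.p6), from 250 bases before to 50 after each start. Of the 51 genes, 44 had a window. Motifs were searched on both strands, and a gene with several windows was counted when any held a match. CCGGAAG, a core of sites bound by ETS factors, was in the windows of 17 of the 44 genes (38.6%), against 9.93% of 27025 symbols. These symbols were not limited to genes with a row, so the shares were not compared with those of expressed genes alone. The matches were uneven between the particles, with 10 of 15 regulatory genes and 1 of 11 core genes (*Psma6*). CCAAT, bound by NF-Y, was in 16 of 44 (36.4%, against 41.1% of all symbols), of which 6 were among the 11 core genes and 5 among the 15 regulatory genes. TGACNNNGC, the core of the antioxidant response element through which the factor encoded by *Nfe2l1* raises proteasome genes, was in 7 of 44 (15.9%, against 14.0%): *Psmb5*, *Psmb6*, *Adrm1*, *Psmc6*, *Psmd12*, *Psmd9* and *Psme4*. A short form of the interferon-stimulated response element, GAAA repeated after a gap of 2 bases, was in 5 of 44 (11.4%, against 3.99%), among them *Psme1*, and in 0 of the 3 immunoproteasome genes within this window. TATAAA was in 5 of 44 (11.4%, against 15.7%), with *Psmb8* and *Psmb4* among them. No motif of the 5 contains another.

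The 120 bases before the start are shown for the catalytic core genes with the highest and the lowest mean count, which both hold TGACNNNGC. They are also shown for a base and a lid gene with CCGGAAG. Capitals mark the matches of any of the 5 motifs, and CTTCCGG is the reverse complement of CCGGAAG. The stretches lie at chr14:54617996-54618115 on the minus strand (*Psmb5*), chr11:70525237-70525356 (*Psmb6*), chr16:20651532-20651651 (*Psmd2*) and chr11:107479408-107479527 (*Psmd12*), the last 3 on the plus strand.

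Psmb5: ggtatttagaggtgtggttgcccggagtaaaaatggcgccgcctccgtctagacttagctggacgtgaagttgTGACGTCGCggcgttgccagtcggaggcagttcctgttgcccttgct

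Psmb6: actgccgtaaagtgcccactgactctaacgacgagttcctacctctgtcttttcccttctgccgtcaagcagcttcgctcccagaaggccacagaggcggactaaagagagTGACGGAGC

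Psmd2: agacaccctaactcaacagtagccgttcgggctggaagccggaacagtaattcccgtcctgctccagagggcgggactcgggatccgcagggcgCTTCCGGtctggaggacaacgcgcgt

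Psmd12: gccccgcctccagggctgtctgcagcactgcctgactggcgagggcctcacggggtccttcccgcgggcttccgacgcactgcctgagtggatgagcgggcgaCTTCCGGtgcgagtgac

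*Psmb6* and *Psmb5* thus share the TGACNNNGC motif, and their levels as counted differ 7.12-fold per kilobase of coding length. The size of this gap is uncertain, since 64.3% of the coding windows of *Psmb5* occur elsewhere. With only the coding windows that occur once as length, *Psmb6* was at 6363 and *Psmb5* at 1848, a smaller gap. Whether the motif and the level are related was not tested, and a match in these letters is not a measured binding site.

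Proteins that work with the proteasome were read from a list of 30 genes, of which 29 had a row and 28 a mean count of at least 100. Their median was 243 per kilobase of merged exons. *Nfe2l1*, whose product drives proteasome genes when degradation is impaired, was highest on that scale at 937, followed by *Uba1*, the main ubiquitin-activating enzyme, at 915, and *Nploc4*, a cofactor of the segregase VCP, at 740. This order depended on the scale. Per kilobase of coding length *Nfe2l1* (3328), *Uba1* (2773) and *Nploc4* (2046) had ranks 3, 6 and 9 of the list. *Sem1*, a small lid subunit whose symbol is outside the name rule, had a mean count of 925, or 3281 per kilobase of coding length. On coding length this is above the highest of the 18 regulatory genes (2603 for *Psmd2*), but per kilobase of merged exons *Sem1* was at 252, below the regulatory median of 483.

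The genes of class I antigen presentation listed beside the immunoproteasome all had rows, 7 of 7. *B2m*, the invariant chain of class I molecules, was at 1863 per kilobase of merged exons, and *Tapbp* (tapasin) at 1296. *Irf1*, a transcription factor of the interferon response, followed at 312, *Tap2* at 145, *Tap1* at 76.8, and *Nlrc5*, the class I transactivator, at 48.5. On this scale *Psmb8* and *Psmb10*, at 321 and 252, stood beside *Irf1*, and *Psmb9*, at 45.4, beside *Nlrc5*. Per kilobase of coding length *Psmb8* (1325) was still close to *Irf1* (1479), but *Psmb10* (519) was lower, and *Psmb9* (256) was above *Nlrc5* (71.8).

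All 51 genes together took 0.567% of the summed mean counts of the table, of which the regulatory particle held 0.300%, the core 0.157% and the immunoproteasome genes 0.0102%. The noncoding gene *Gm26917* alone took 6.29%.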

How the data were processed

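Total RNA of 3 *Pkd1-/-* and 3 wild type mDCT15 samples was sequenced after ribosomal RNA depletion, as read pairs of 42 bases. According to the submitters' processing notes, reads were trimmed with Trim Galore 0.4.5, aligned to GRCm39 with STAR 2.7.5a and counted with HTSeq 0.11.0, and the table was made with DESeq2 1.22.0 in R 3.5.3. HTSeq was run with default parameters, which leave out reads that align to several places. The deposited signal used here is the authors' mean of normalized counts over all 6 samples, 1 value per gene for 20624 genes. It carries no SD, and neither the depth of each sample nor an interval can be derived from it. The other 5 numeric columns hold the authors' comparison of the genotypes (log2 fold change, its standard error, a test statistic, a p-value and an adjusted p-value) and were not used, so no genotype difference is given. The count test planned for single samples was not run, since the table has no columns of single samples. A minimum of 5 counts per sample and gene is stated, but 5385 genes have a mean under 5.

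Symbols matching the proteasome gene names were taken. Means were divided by the merged exon length of GENCODE M39 (Ensembl 116, GRCm39), which found 97.6% of the identifiers and all 51 members. They were also divided by the longest annotated coding length, which 13865 genes of the table have. The paper counted reads on an earlier Ensembl release, so merged exons can include exons that were not counted. For *Psma3* the merged exons joined 130 transcripts over 10672 bases, against 3593 in its canonical transcript. The effect of this difference was not tested. Windows of 42 bases within single coding exons were searched in the whole genome on both strands, and the search was tested on simulated sequences. Windows across exon joins were not included. Promoter windows came from RefSeq (GRCm38.p6). Python 3.11.15, numpy 2.4.6 and pandas 2.3.3 were used. Values in full were given for catalytic, immunoproteasome, tissue-restricted, activator, inhibitor and chaperone genes and for the 3 highest and 3 lowest per kilobase of merged exons in the core and in the regulatory particle. From the other lists, the 3 highest partners per kilobase of merged exons, *Sem1*, *Nfe2l1* and the antigen presentation genes were named, except 1 that is not reported here, and the marker genes were chosen after their values were seen. The members, lists and motifs were chosen with earlier results of these data known.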

Additional observations from a re-analysis of the deposited data

How the results depend on the processing

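The levels moved with the length that divides the mean count. With the longest transcript, the medians of core, regulatory and immunoproteasome genes were 584, 843 and 326, the ratios of *Psmb9* to *Psmb6*, *Psmb10* to *Psmb7* and *Psmb8* to *Psmb5* were 0.0344, 0.609 and 2.22, and the core spread 7.91-fold. With coding length these were 2346, 2010 and 519, then 0.0646, 0.232 and 2.38, and 7.12-fold, and 10 regulatory genes were in the top 10% in place of 16. With coding windows that occur once, an alternative chosen after seeing the data, they were 5747, 3164 and 852, then 0.0636, 0.192 and 1.02, and 10.2-fold. Adding the count of the copy to *Psmb5*, also chosen after seeing the data, gave 0.615 for *Psmb8* to *Psmb5*. Without the members that overlap exons of another gene on either strand, the core spread 5.86-fold and the regulatory median was 481. Of those left, 5 of the 6 core and 10 of the 11 regulatory genes were in the top 10%. With all members these were 10 of 14 and 16 of 18, so the lower counts come from fewer genes. Each of the 3 pairs lost at least 1 gene, so the ratios could not be computed. *Psmb9* and *Psmb7* were left out for overlaps on the opposite strand only. A filter on same-strand overlaps alone was not run. Against genes with a mean of at least 10 alone, 6 core genes were in the top 10% in place of 10. The direction of *Psmb9* below *Psmb6* and *Psmb10* below *Psmb7* held under each length tried. Depth limits cannot be given, since the table holds 1 mean per gene. The alternatives planned for a genotype test (other size factors, no count filter, a replicate block, leaving out each replicate) were not run. No paired analysis was possible because the table has no columns of single samples.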
